A study of Rattus norvegicus with 8 samples.

Results

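The 7 chemokine genes Ccl2, Ccl3, Ccl4, Ccl5, Ccl9, Xcl1 and Cxcl1 were followed in immune cells of the rat liver, as 7 of the 32754 genes in the count tables. They were chosen by symbol, and each symbol had 1 row (ENSRNOG00000007159, ENSRNOG00000011205, ENSRNOG00000011406, ENSRNOG00000010906, ENSRNOG00000028548, ENSRNOG00000002964 and ENSRNOG00000002802, in the same order). The study asked whether cryopreserved cells give the same single-cell profiles as fresh cells. Livers came from 4 male Han Wistar rats. The negative controls were NC1 and NC2, which received an l-amino acid-defined diet with sufficient choline (CSAA). Animals PC1 and PC2 received the choline-deficient form of that diet (CDAA), which is used to bring about fatty liver with inflammation. From each animal, immune cells were separated by filtering, lysis of erythrocytes and a density gradient, and then loaded on the Chromium system either fresh (NC1 fresh, NC2 fresh, PC1 fresh, PC2 fresh) or after 3 weeks of cryopreservation in DMSO (the preserved libraries). All groups thus shared the strain, the tissue and the way in which the cells were isolated. No group was untreated by diet, and the fresh and the preserved aliquot of an animal were processed at different times, so that preservation and the day of processing cannot be told apart.

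Chemokines are small secreted proteins that attract leukocytes by binding receptors with 7 membrane passes on their surface. In the liver, those of Kupffer cells and monocytes bring in further monocytes and neutrophils, whereas natural killer (NK) and T cells release chemokines that act on monocytes, dendritic cells and other lymphocytes. Many chemokine genes are induced within minutes to hours by inflammatory signals, and their short-lived transcripts are removed by proteins such as the one encoded by Zfp36.

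The start regions of 3 of the 7 genes were found by symbol in the RefSeq promoter table (assembly GRCr8, whereas the counts were made on Rnor6.0). They are shown because they included Ccl9 and Cxcl1, the members called between the diets over all cells, beside Xcl1, which was not called over all cells. Each is the sequence before the start of the gene in the RefSeq gene table, written 5′ to 3′ along the gene, with 250 bases for Xcl1 and Cxcl1 and 199 for Ccl9, whose gene reaches 51 bases further than the start used in the promoter table, and capitals mark matches to the kappaB-type motif (GGG, 2 bases of any kind and TTTCC) on either strand. All 3 genes lie on the minus strand, Ccl9 at chr10:68868929-68869127, Xcl1 at chr13:79785441-79785690 and Cxcl1 at chr14:17479322-17479571.
Ccl9: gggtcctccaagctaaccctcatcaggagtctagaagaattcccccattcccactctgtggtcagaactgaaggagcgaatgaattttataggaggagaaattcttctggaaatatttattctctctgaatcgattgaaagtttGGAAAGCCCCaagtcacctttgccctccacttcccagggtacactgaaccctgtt
Xcl1: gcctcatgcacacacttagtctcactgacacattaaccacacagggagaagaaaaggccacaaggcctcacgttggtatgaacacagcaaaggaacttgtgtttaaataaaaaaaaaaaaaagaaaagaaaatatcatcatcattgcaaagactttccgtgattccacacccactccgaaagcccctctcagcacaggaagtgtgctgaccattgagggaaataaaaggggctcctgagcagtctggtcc
Cxcl1: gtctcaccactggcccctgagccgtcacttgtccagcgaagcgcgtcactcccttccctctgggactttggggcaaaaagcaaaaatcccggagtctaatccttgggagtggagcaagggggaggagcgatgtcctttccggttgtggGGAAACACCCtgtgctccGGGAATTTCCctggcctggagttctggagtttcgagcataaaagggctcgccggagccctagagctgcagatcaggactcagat
The Cxcl1 promoter held 2 matches, 102 to 93 bases (minus strand) and 84 to 75 bases (plus strand) before the start. The Ccl9 promoter held 1 match, 55 to 46 bases before the start on the minus strand, and that of Xcl1 held none. Of the 33469 promoters in the table, searched over 250 bases, 435 (1.30%) held the motif. None of the 3 promoters held the AP-1 motif TGANTCA (6.34% of all promoters) or the C/EBP motif TTGCNNAA (9.22% of all promoters), both searched on either strand. A match is a description of letters only.

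The 8 libraries held 18338700 to 26471843 UMIs (unique molecular identifiers, each standing for 1 captured transcript). Barcodes with at least 500 UMIs were taken as cells, which gave 3673 to 4771 cells per library and 34053 in all, with a median of 3339.0 to 4309.0 UMIs per cell. Barcodes outside this set held 7.92% to 13.01% of the UMIs, and those with 1 to 100 UMIs gave the profile of free RNA. Libraries shared 13 to 36 barcodes per pair, where 18.3 and 27.9 would be shared by random draw from all barcodes for these 2 pairs.

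Cells were assigned to the 7 gates Clec4f (Kupffer cell markers), Clec4a3 (markers of Clec4a3 myeloid cells), Vcan (classical monocyte markers), Siglech (plasmacytoid dendritic cell markers), Cd79a (B cell markers), Cd3e (T cell markers) and Ncr1 (NK cell markers). A cell entered a gate if at least 3 genes of the marker list were detected and more than of any other list. The Ncr1 gate held 6607 cells, Clec4a3 5518, Siglech 3317, Vcan 2973, Cd3e 2083, Cd79a 1184 and Clec4f 998. Another 6568 cells tied between lists and 4805 reached no list. In its own gate, each gate marker stood at 4.27 (Ncr1) to 36.6 (Cd79a) times its level in the free RNA (median of 8 libraries). Each marker is in the list that set its gate, so that these values describe the gates and do not test them. The gates were not pure. Neutrophil markers in the Vcan gate stood at 3.70 times, platelet markers in the Ncr1 gate at 4.02 times and endothelial markers in the Siglech gate at 2.71 times the free RNA. The cells that reached no list carried neutrophil markers at 9.88 times the free RNA. The part of these other cells in the chemokine levels was not tested.

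Levels are given in CPM, the UMIs of a gene per 1000000 UMIs of the gate or library. To each level belongs a background, the level that free RNA alone would give. It was the level in the free RNA multiplied by the median ratio at which marker genes of distant lineages stood in that gate (0.302 to 0.704 of the free RNA). Single marker genes scattered widely around this median. They ranged from 0.227 to 1.38 around 0.317 in the Vcan gate of preserved NC1, and from 0.295 to 3.43 around 0.424 in the Clec4a3 gate of preserved PC2. A level up to 1.5 times the background was read as background, and levels not far above this limit are uncertain. The gates were part of how the question was set, so that differences between gates are a description without a test.

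Ccl5, which attracts T cells and monocytes, had its highest level in the gate of NK cell markers. Its level in the Ncr1 gate was 24557 ± 1158 CPM (SD, n = 8 libraries), between 23318 and 26400. The Cd3e gate followed among the gates above background with 5539 ± 857. Cells tied between lists and cells that reached no list had 8032 ± 1296 and 7653 ± 2998, and no background was set for them. The lowest Ncr1 gate lay above the highest value of every other gate. The median level over background was 7.63-fold in the Ncr1 gate and 1.87-fold in the Cd3e gate, and 1.07- to 1.35-fold in the other 5 gates. The Ncr1 gate held 46.3% (median) of the Ccl5 UMIs of a library.

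Xcl1, the ligand of Xcr1 on cross-presenting dendritic cells, followed the same order. It reached 1285 ± 391 CPM in the Ncr1 gate and 431 ± 144 in the Cd3e gate (SD, n = 8), again with no overlap between these gates. Both lay above background in 8 of 8 libraries, by a median of 6.08-fold and 2.29-fold. In the Clec4f, Clec4a3, Vcan, Siglech and Cd79a gates the median was at most 1.35-fold. Tied cells and cells that reached no list, without a set background, had 505 ± 208 and 517 ± 158 CPM.

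Ccl4, an attractant of monocytes and lymphocytes, was highest in the Ncr1 gate with 1409 ± 458 CPM, 4.79-fold above background. The Cd3e gate had 504 ± 298, 1.76-fold above background. In each library the Ncr1 gate exceeded the Cd3e gate and the Clec4f gate, the next in order with 586 ± 219, although the ranges over libraries overlapped. Ccl4 was near background in the 5 gates other than Ncr1 and Cd3e, with medians from 0.917-fold to 1.22-fold. Tied cells and cells that reached no list, without a set background, had 542 ± 229 and 537 ± 230 CPM.

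Ccl3, a ligand of Ccr1, reached similar mean levels over the 8 libraries in the Ncr1, Vcan and Clec4a3 gates. Its levels were 911 ± 523 in the Ncr1 gate, 794 ± 554 in the Vcan gate and 772 ± 573 CPM in the Clec4a3 gate (SD, n = 8). These 3 levels overlapped widely, and the Ncr1 gate exceeded the Vcan gate in 6 of 8 libraries. The spread includes the difference between fresh and preserved libraries. In fresh libraries the Ncr1, Vcan and Clec4a3 means were 461, 327 and 284 CPM, and in preserved libraries 1361, 1261 and 1260. Over background the medians were 2.82-fold, 1.90-fold and 1.93-fold. The Cd79a and Cd3e gates reached 1.57-fold and 1.52-fold, close to the limit of 1.5, and the Clec4f and Siglech gates 0.956-fold and 0.812-fold. With gates set by the single marker, the Vcan gate stood above the Ncr1 gate (922 against 899.7 CPM at 1 marker UMI, and 1145 against 929 at 2 marker UMIs). The cells that reached no list, which carried neutrophil markers, had Ccl3 at 889 ± 639 CPM. The free RNA itself had Ccl3 at 812 ± 600 CPM. No background was set for these cells, so it cannot be told whether they held Ccl3 above it.

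Ccl2, the main attractant of classical monocytes through Ccr2, belonged to the myeloid gates. It reached 728 ± 650 CPM in the Vcan gate and 527 ± 673 in the Clec4f gate. The spread over libraries was nearly as large as the mean in the Vcan gate and larger than the mean in the Clec4f gate. The Vcan gate exceeded the Clec4f gate in 7 of 8 libraries. The median level over background was 6.64-fold in the Vcan gate, 2.50-fold in the Clec4f gate and 1.61-fold in the Clec4a3 gate, and 0.874- to 1.06-fold in the Siglech, Cd79a, Cd3e and Ncr1 gates.

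Ccl9, a ligand of Ccr1, was highest in the Clec4a3 gate, with 109.5 ± 61.8 CPM and 5.68-fold above background. It exceeded the Vcan gate, the next in order with 32.4 ± 26.1, in 8 of 8 libraries. The Vcan gate and the 5 others lay between 0.867-fold and 1.31-fold of background. The Clec4a3 gate held 39.9% (median) of the Ccl9 UMIs.

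Cxcl1, which attracts neutrophils through Cxcr2, was highest in the Clec4f gate with 181 ± 221 CPM, followed by the Vcan gate with 76.9 ± 119. The medians over background were 3.34-fold and 2.49-fold, and at most 1.32-fold elsewhere. Both gates lay above 1.5 times background in only 5 of 8 libraries. The Clec4f mean pools diets that differed, with 250 (fresh) and 464 (preserved) CPM in CSAA and 5.33 and 2.34 in CDAA libraries. The place of the Clec4f gate in the order depended on how the gates were set. It was kept with gates of 1 marker UMI and none of the other gate markers, at 139 CPM. In cells with at least 2 UMIs of Clec4f itself and none of the other gate markers, Cxcl1 was at 14.5 CPM and the Cd79a gate was highest with 70.2. That Clec4f gate held only 2 to 15 cells per library. The Clec4f gate held only 13.6% (median) of the Cxcl1 UMIs of a library.

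**Figure D1:**
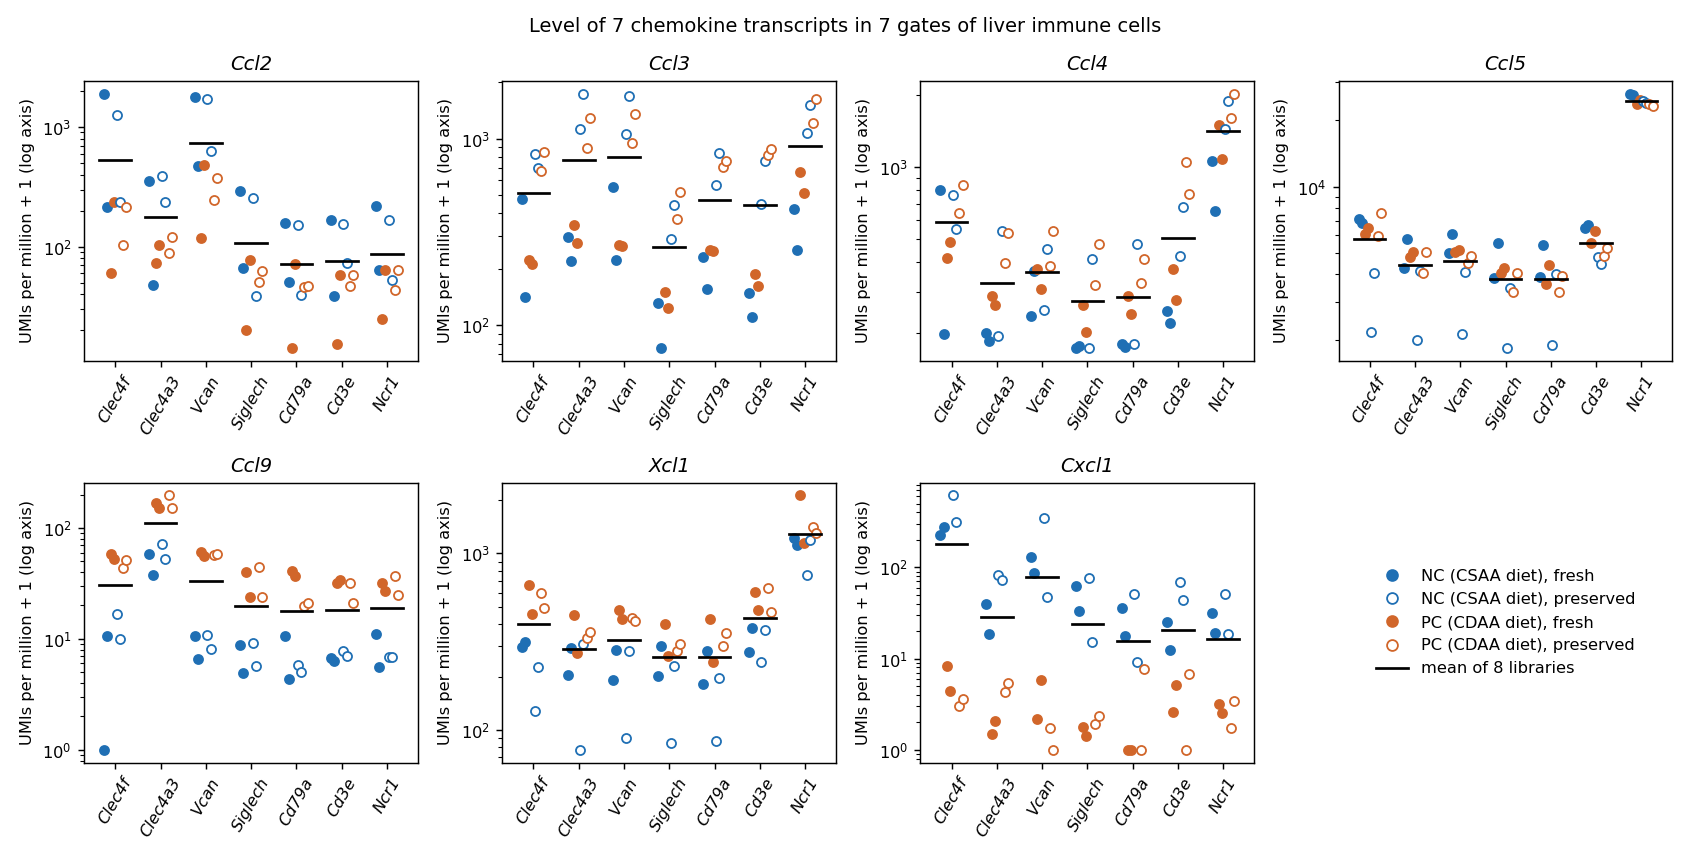
Level of each chemokine by gate. The x axis gives the 7 gates and the y axis CPM plus 1 on a log scale, with filled points for fresh and open points for preserved libraries, blue for NC, orange for PC and a bar at the mean of 8 libraries. Ccl5 and Xcl1 in the Ncr1 gate stand clear of all other gates, Ccl9 is highest in the Clec4a3 gate, and Ccl3 reaches similar mean levels in the Ncr1, Vcan and Clec4a3 gates.

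**Figure D2:**
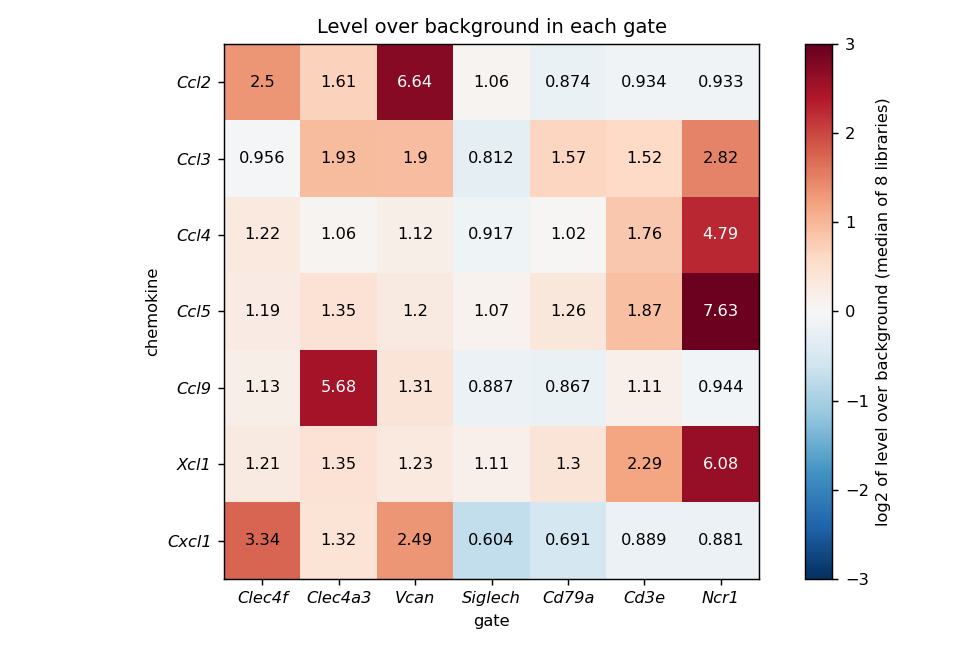
Median level over background of each chemokine (rows) in each gate (columns), as the ratio of the level to that expected from free RNA over 8 libraries. The highest ratios are 7.63 for Ccl5 and 6.08 for Xcl1 in the Ncr1 gate, 6.64 for Ccl2 in the Vcan gate and 5.68 for Ccl9 in the Clec4a3 gate.

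The genes whose profiles were most like those of the members were sought over the 56 profiles of 7 gates in 8 libraries among 6086 genes, with Pearson's r of log2 levels. The profiles share libraries, depth and free RNA, and r is given as a description. For Ccl5 these were Klrb1b, Prf1 and Klre1 (0.96 each), which encode NK cell receptors and the pore-forming perforin. For Xcl1 these were Gzmm (0.94), a granzyme, and the receptors Klri1 and Klrb1c (0.91 each). For Ccl2 these were Il1b (0.87), Ccl24 (0.84) and Fn1 (0.81), a cytokine, a chemokine and fibronectin.

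For Ccl9 the closest genes were Hsd11b1 (0.88), Slc25a5 (0.87) and Lilrb4 (0.86). For Ccl3 they were the transcription factor genes Jun (0.86), Atf4 (0.82) and Junb (0.82). Ccl4 was closest to Dok2 (0.79), Cks2 (0.79) and Rgs1 (0.78), and Cxcl1 to Scand1, Cxcl2 (0.80 each) and Ccl24 (0.79).

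The first comparison asked how the chemokines differed after preservation. UMIs were summed over all cells of a library, and in such sums fewer cells of a type and less RNA per cell cannot be told apart. Ccl3 and Ccl4 were called higher in preserved libraries (edgeR quasi-likelihood test, blocked by animal, at a Benjamini-Hochberg adjusted p under 0.05), which made 2 of 7 members, where 9.07% of all genes tested were called in either direction. The other 5 members did not pass the test.

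Ccl3 was at 282, 185, 337 and 292 CPM in fresh NC1, NC2, PC1 and PC2, and at 691, 1051, 829 and 1268 in the preserved libraries of the same animals. Every preserved library stood above every fresh one. The log2 fold change was 1.86 (SE 0.18, adjusted p = 0.000983), and 4 of 4 animals were higher. Ccl3 also stood higher in the free RNA, with 252 to 347 CPM in fresh and 866 to 1641 in preserved libraries.

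Ccl4 was at 376, 361, 548 and 481 CPM in fresh NC1, NC2, PC1 and PC2, and at 395, 869, 651 and 1068 after preservation. The groups overlapped, since preserved NC1 lay below fresh PC1 and PC2, but each animal was higher after preservation. The log2 fold change was 0.74 (SE 0.17, adjusted p = 0.0316). This call was lost without NC2 (0.53, adjusted p = 0.150), without PC1 (0.88, adjusted p = 0.0511) and without PC2 (0.59, adjusted p = 0.130).

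The remaining members gave log2 fold changes of 0.42 (Ccl2, SE 0.15, adjusted p = 0.113), -0.27 (Ccl5, SE 0.11, adjusted p = 0.151) and -0.02 (Ccl9, SE 0.08, adjusted p = 0.909). Xcl1 gave -0.22 (SE 0.17, adjusted p = 0.452) and Cxcl1 0.65 (SE 0.25, adjusted p = 0.130). The Ncr1 gate, the main place of Ccl5 and Xcl1, held 20.6% ± 6.30 of the cells in fresh and 17.7% ± 7.24 in preserved libraries (SD, n = 4).

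**Figure D3:**
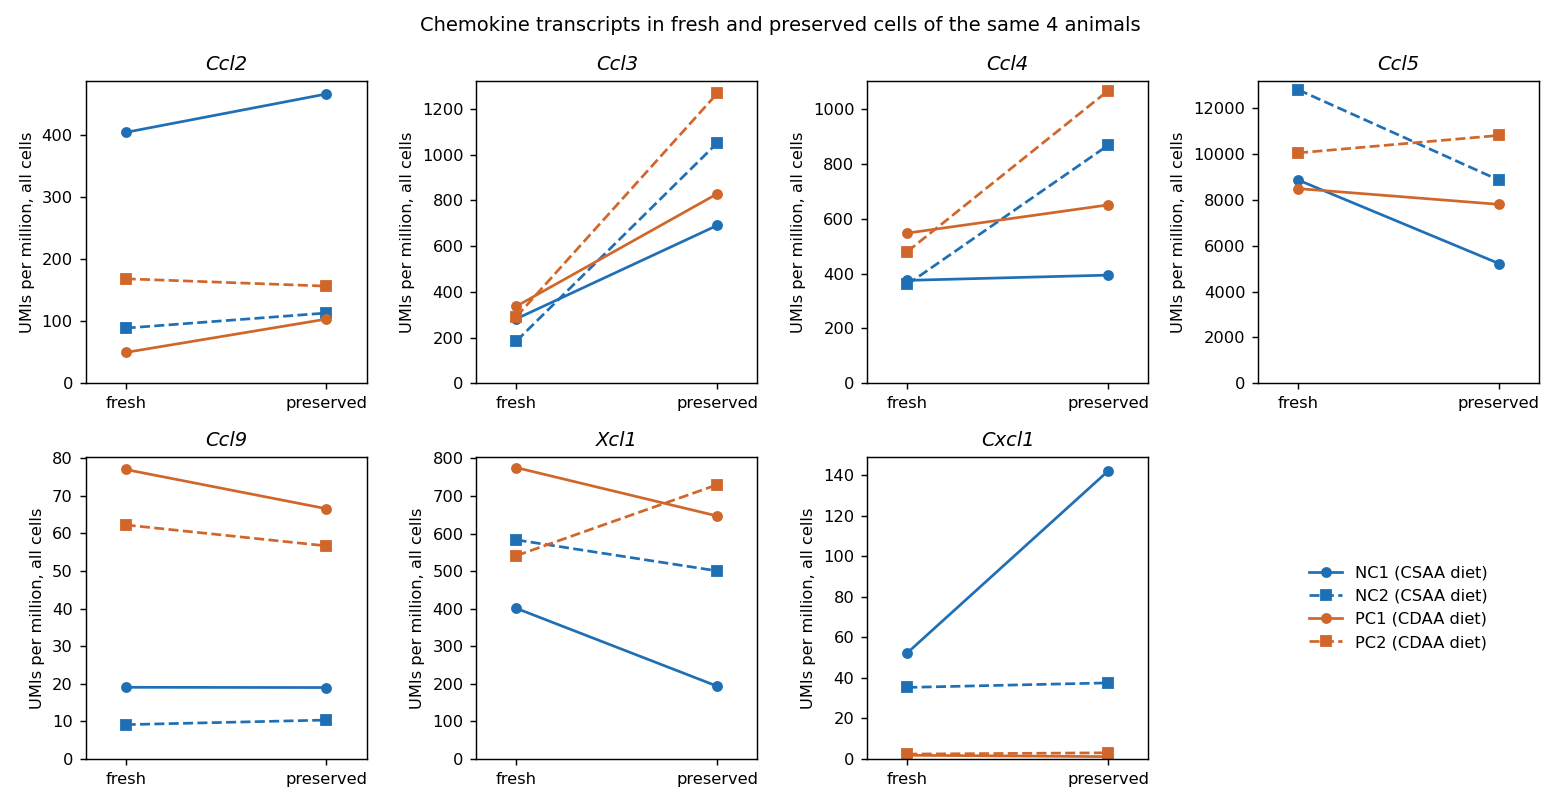
Level of each chemokine over all cells, in CPM, before and after preservation. Each line joins the 2 libraries of an animal, blue for NC and orange for PC. Ccl3 and Ccl4 go up in 4 of 4 animals, Ccl9 is higher in the PC than in the NC libraries, and Cxcl1 is at 1.13 to 3.02 in the 4 PC libraries.

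The same test within gates gave Ccl3 a higher level after preservation in 7 of 7 gates and Ccl4 in 6 of 7. The gates with Ccl3 above background were led by Ncr1. There, Ccl3 was at 417, 252, 662 and 512 CPM in fresh NC1, NC2, PC1 and PC2 and at 1076, 1512, 1219 and 1639 after preservation. The groups did not overlap (log2 fold change 1.69, SE 0.18, adjusted p = 3.43e-05), in a gate where 7.58% of all genes were called.

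In the Clec4a3 gate, Ccl3 was at 297, 219, 346 and 275 CPM in fresh and at 1126, 1738, 887 and 1288 in preserved NC1, NC2, PC1 and PC2. In the Vcan gate it was at 551, 223, 268 and 266 before and 1058, 1693, 947 and 1349 after. Neither gate showed an overlap between fresh and preserved libraries. The log2 fold changes were 2.17 (SE 0.18, adjusted p = 1.88e-05) and 2.04 (SE 0.19, adjusted p = 1.04e-05), where 2.02% and 2.62% of all genes were called.

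The Cd3e gate gave Ccl3 a log2 fold change of 2.26 (SE 0.13, adjusted p = 2.73e-10, 1.8% of all genes called) and the Cd79a gate 1.76 (SE 0.14, adjusted p = 9.82e-08, 1.19% called). In the Clec4f and Siglech gates, where Ccl3 was at background, the values were 1.71 (SE 0.17, adjusted p = 3.32e-05, 1.86% called) and 1.77 (SE 0.17, adjusted p = 5.95e-05, 4.09% called). Ccl3 was thus also called in gates that did not hold it above background. After the free RNA profile had been subtracted from each gate, Ccl3 was called in the Clec4a3 gate (2.21, adjusted p = 0.0350) and the Cd3e gate (2.81, adjusted p = 0.0330). There, 0.203% and 0.175% of all genes tested were called. Ccl3 was not called in the Ncr1 gate (1.49, adjusted p = 0.108, 0.229% called), the Vcan gate (2.33, adjusted p = 0.186, 0% called) and the Cd79a gate (1.52, adjusted p = 0.0527, 0.102% called). Each of these shares of all genes was lower than before the subtraction.

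Ccl4 was at 1064, 653, 1499 and 1080 CPM in the Ncr1 gate of fresh NC1, NC2, PC1 and PC2 and at 1446, 1892, 1612 and 2030 after preservation. Only preserved NC1 lay below a fresh library, that of PC1. The log2 fold change was 0.81 (SE 0.15, adjusted p = 0.00468). The Cd3e gate rose from 248, 220, 373 and 276 to 422, 679, 1051 and 766 without overlap (1.37, SE 0.11, adjusted p = 6.84e-08). With the free RNA subtracted this call held (1.57, adjusted p = 0.0150, 0.175% of all genes called), whereas in the Ncr1 gate it did not (0.68, adjusted p = 0.340, 0.229% called). Of the gates with Ccl4 near background, Clec4f, Clec4a3, Vcan and Siglech were called with 0.40 to 0.80 and Cd79a was not (0.66, SE 0.17, adjusted p = 0.0677).

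Shares of cells with a UMI rise with depth and were therefore compared after each cell had been thinned to 1000 UMIs. In the Ncr1 gate, cells with Ccl3 made up 26.9% ± 3.89 in fresh and 61.6% ± 6.89 in preserved libraries, and those with Ccl4 47.3% ± 3.06 and 66.7% ± 5.65 (SD, n = 4). Both shares were higher in 4 of 4 animals (two-sided exact permutation p = 0.125, the smallest that 4 pairs can give, adjusted p = 0.219 over 7 members). In the Siglech gate, in which both genes were at background, the thinned shares were 11.6% and 32.1% for Ccl3 and 18.3% and 27.8% for Ccl4, at a median depth of 8533 and 7942 UMIs per cell against 4138 and 4295 in the Ncr1 gate. Unthinned, the shares in the Ncr1 gate were 63.6% and 91.6% for Ccl3 and 82.8% and 92.5% for Ccl4. The top 1% of cells held 14.1% to 25.8% of the Ccl3 UMIs in fresh and 8.16% to 12.4% in preserved libraries. Ccl2 in the Vcan gate and Ccl9 in the Clec4a3 gate also had higher thinned shares in 4 of 4 animals. These shares were 16.3% fresh and 20.9% preserved for Ccl2, and 8.81% and 10.4% for Ccl9. Their exact permutation p and adjusted p were the same as for Ccl3 and Ccl4.

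Ccl5 in the Ncr1 gate differed little between fresh (23735 to 26400 CPM) and preserved cells (23318 to 24431), and these ranges overlapped. The log2 fold change was -0.02 (SE 0.05, adjusted p = 0.867). It was called lower in the Cd3e gate (-0.34, SE 0.07, adjusted p = 0.00774), where fresh libraries had 5545 to 6688 and preserved ones 4458 to 5233 without overlap, and in the Siglech gate (-0.50, SE 0.11, adjusted p = 0.0226), where it was at background. With the free RNA subtracted, neither was called, at -0.62 (SE 0.10, adjusted p = 0.0527) in the Cd3e gate and -1.72 (SE 1.11, adjusted p = 0.595) in the Siglech gate. In these subtracted fits, 0.175% and 0.085% of all genes were called.

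Xcl1 in the Ncr1 gate (-0.18, SE 0.11, adjusted p = 0.377), Ccl2 in the Vcan gate (0.30, SE 0.15, adjusted p = 0.391), Ccl9 in the Clec4a3 gate (0.26, SE 0.09, adjusted p = 0.169) and Cxcl1 in the Clec4f gate (0.55, SE 0.26, adjusted p = 0.428) did not pass the test. Cxcl1 was called higher in the Clec4a3 gate (1.57, SE 0.20, adjusted p = 0.000897) and the Cd3e gate (1.66, SE 0.21, adjusted p = 6.44e-05), in which its median was 1.32-fold and 0.889-fold of background.

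**Figure D4:**
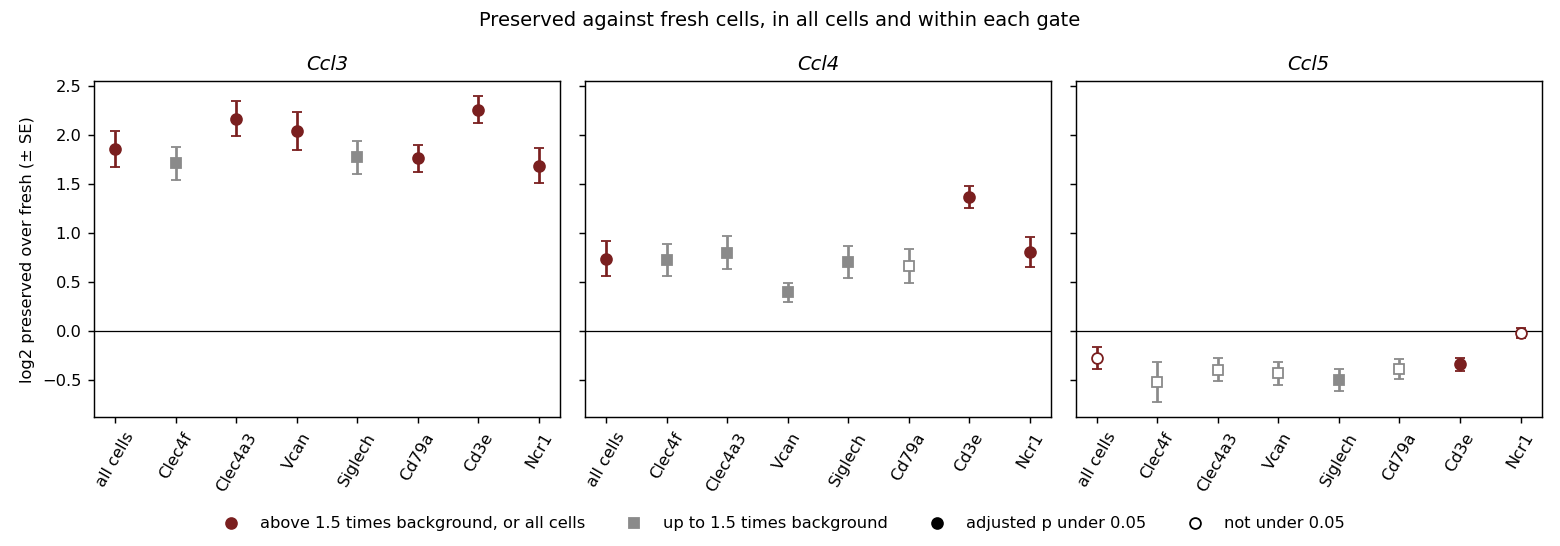
Preserved over fresh on the log2 scale (± SE, edgeR) for Ccl3, Ccl4 and Ccl5 over all cells and in each gate. Red circles mark all cells and gates above 1.5 times background, grey squares gates up to 1.5 times, and filled symbols an adjusted p under 0.05. Ccl3 lies between 1.69 and 2.26 in every gate, whereas Ccl5 lies at -0.02 in the Ncr1 gate.

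Among related genes over all cells, 1 of 16 tested chemokines beyond the 7 members (28 listed) was called higher after preservation and none lower, with a median log2 fold change of -0.03 where that of all genes was -0.00. It was Cxcl2 (0.90, SE 0.16, adjusted p = 0.00879), a further ligand of Cxcr2. Of 13 tested chemokine receptors (23 listed) edgeR called none, and 3 had an unadjusted p under 0.05. Of 15 tested inducers and brakes of chemokine genes, 4 were called higher and 2 lower (median 0.06). Zfp36, whose protein destabilizes cytokine and chemokine transcripts, rose by 1.53 (SE 0.15, adjusted p = 0.00106), Nfkbiz by 0.78 (SE 0.10, adjusted p = 0.00267) and Egr1 by 0.76 (SE 0.18, adjusted p = 0.0331). The transcription factor genes Cebpb (-0.57, SE 0.15, adjusted p = 0.0499) and Nfkb1 (-0.29, SE 0.06, adjusted p = 0.0208) were lower.

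The second comparison asked how the diets differed, with 2 animals of each diet, apart in fresh cells and in the preserved cells of the same 4 animals. Over all cells, Ccl9 was called higher and Cxcl1 lower in CDAA animals in both. This made 2 of 7 members in fresh cells, where 1.18% of all genes were called, and 2 of 7 in preserved cells, where 0.642% were called. The other 5 members did not pass the test. The diets also differed in the makeup of the libraries. Cells of the Cd3e gate were 2.04% of cells in CDAA and 10.6% in CSAA libraries, those of the Vcan gate 12.1% and 5.20%, and those of the Clec4f gate 4.39% and 1.53% (means, n = 4 libraries of 2 animals).

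Ccl9 was at 19.1 and 9.12 CPM in fresh NC1 and NC2 and at 77.0 and 62.3 in fresh PC1 and PC2. After preservation, the values were 19.0 and 10.3 against 66.6 and 56.7. The diets did not overlap. The log2 fold change was 2.33 (SE 0.33, adjusted p = 0.0470) in fresh and 2.05 (SE 0.27, adjusted p = 0.0390) in preserved cells, which corresponds to 5.01-fold and 4.14-fold. Both calls were lost without PC1 (adjusted p = 0.0844 and 0.248) and without PC2 (adjusted p = 0.114 and 0.400), with log2 fold changes of 1.89 to 2.47.

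Within the Clec4a3 gate, the place of Ccl9, fresh libraries had 57.1 and 36.4 CPM in NC1 and NC2 and 167 and 149 in PC1 and PC2, and preserved libraries 71.1 and 51.6 against 195 and 149. Every PC library stood above every NC library. The log2 fold changes were 1.72 (SE 0.19, adjusted p = 0.0154) and 1.41 (SE 0.21, adjusted p = 0.0132), where 0.65% and 1.12% of all genes were called. With the free RNA subtracted they were 1.62 (SE 0.27, adjusted p = 0.264) and 1.51 (SE 0.24, adjusted p = 0.0596), neither of them called. In these subtracted fits, 0.0427% and 0.27% of all genes were called. The Clec4a3 gate itself held 16.9% of cells in CDAA and 15.3% in CSAA libraries (means over fresh and preserved libraries). In fresh cells the shares were 18.4% and 13.1% in NC1 and NC2 and 21.9% and 19.2% in PC1 and PC2, without overlap. In preserved cells they were 19.1% and 10.7% against 12.5% and 13.8%, with overlap. The part of these shares in the Ccl9 values over all cells was not tested. Ccl9 was called higher in CDAA animals in 7 of 7 gates in fresh cells and in 5 of 6 gates tested in preserved cells, although it was near background in all but the Clec4a3 gate. These included the Siglech gate in both preparations (adjusted p = 0.0148 and 0.0214, with 1.11% and 1.33% of all genes called) and, in fresh cells, the Cd79a gate (adjusted p = 0.0304, 0.875% called) and the Cd3e gate (adjusted p = 0.0293, 0.288% called). In preserved cells the Cd3e gate was not called (adjusted p = 0.0947, 0.811% called) and the Cd79a gate did not pass the filter.

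Cxcl1 was at 52.4 and 35.3 CPM in fresh NC1 and NC2 and at 1.79 and 2.38 in fresh PC1 and PC2. After preservation it was at 142 and 37.6 in NC1 and NC2 and at 1.13 and 3.02 in PC1 and PC2. The 4 PC values rested on 41, 57, 25 and 68 UMIs. The diets stood far apart, with log2 fold changes of -4.37 (SE 0.26, adjusted p = 0.0137) in fresh and -5.45 (SE 0.74, adjusted p = 0.0442) in preserved cells, or 20.6-fold and 43.7-fold lower in CDAA animals. Without PC1 or PC2, the call in preserved cells was lost (-4.94, adjusted p = 0.290, and -6.27, adjusted p = 0.472).

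In the Clec4f gate, Cxcl1 had 41 and 144 UMIs (224 and 277 CPM) in fresh NC1 and NC2 and 11 and 4 UMIs (7.27 and 3.39 CPM) in fresh PC1 and PC2. In preserved cells the counts were 155 and 174 UMIs (613 and 316 CPM) in NC1 and NC2 and 6 and 1 in PC1 and PC2. The NC libraries were higher throughout (adjusted p = 3.56e-08 and 6.73e-07, with 2.3% and 4.43% of all genes called). With the free RNA subtracted, the call was lost in fresh cells (-6.30, adjusted p = 0.120, 0% of all genes called) and made in preserved cells (-11.4, adjusted p = 0.0402, 0.291% called). That preserved fit also called Ccl5 higher in CDAA animals (13.7, adjusted p = 0.0402), although Ccl5 was near background in the Clec4f gate (median 1.19-fold). The calls and sizes of this fit are therefore uncertain. After that subtraction Cxcl1 was also called lower in the preserved Clec4a3 gate (-4.64, adjusted p = 0.0188, 0.27% called). It was not called in the Vcan gate (adjusted p = 0.233 fresh and 0.173 preserved, 0.0977% and 0.0521% called) or the fresh Siglech gate (adjusted p = 0.205, 0.0146% called). Cxcl1 was called lower in CDAA animals in 6 of 7 gates in fresh cells (not in Cd3e, adjusted p = 0.232) and in 6 of 6 gates tested in preserved cells, the gates at background included, such as Siglech (adjusted p = 0.000348 and 0.0198). In the Vcan gate the PC libraries had 3 and 17 UMIs fresh and 2 and 0 UMIs preserved, against 39 to 421 in the NC libraries.

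Ccl2 over all cells was at 404 and 88.8 CPM in fresh NC1 and NC2 and at 49.6 and 168 in fresh PC1 and PC2. In preserved cells it was at 466 and 113 against 103 and 156. NC1 was high in both preparations, and the diets overlapped. The log2 fold changes were -1.15 (SE 0.80, adjusted p = 0.468) and -1.17 (SE 0.57, adjusted p = 0.415). Without NC1 they were 0.30 and 0.15, of the opposite sign, and without NC2 they were called (-1.85, adjusted p = 0.0427, and -1.84, adjusted p = 0.00666).

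Within the Vcan gate, Ccl2 was at 1775 and 469 CPM in fresh NC1 and NC2 and at 117 and 482 in fresh PC1 and PC2. In preserved cells it was at 1727 and 628 against 246 and 377. The diets overlapped in fresh cells (-1.95, SE 0.68, adjusted p = 0.249, 0.416% of all genes called) and not in preserved cells (-2.03, SE 0.38, adjusted p = 0.0403, 1.19% called). In the Clec4f gate, Ccl2 was at 1893 and 213 against 58.8 and 236 in fresh cells and at 1261 and 238 against 103 and 214 in preserved cells. It was called lower in CDAA animals in both (-2.79, SE 0.67, adjusted p = 0.0370, and -2.33, SE 0.55, adjusted p = 0.0338), although fresh NC2 lay below fresh PC2. In the Clec4a3 gate the call was made in preserved cells (-1.65, SE 0.23, adjusted p = 0.0124) and held with the free RNA subtracted (-2.19, adjusted p = 0.00915, 0.27% of all genes called). The calls in the Clec4f gate (-3.63, adjusted p = 0.764, and -2.95, adjusted p = 0.333) and in the preserved Vcan gate (-1.94, adjusted p = 0.189) were then lost. Of all genes, 0% (fresh) and 0.291% (preserved) were called in the subtracted Clec4f gate and 0.0521% in the subtracted preserved Vcan gate.

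Ccl3, Ccl4, Ccl5 and Xcl1 did not pass the test between diets over all cells. In fresh and in preserved cells the log2 values were 0.45 and 0.22 for Ccl3, 0.50 and 0.38 for Ccl4, -0.21 and 0.35 for Ccl5, and 0.44 and 0.93 for Xcl1, with adjusted p from 0.0979 to 0.761. In the Ncr1 gate, where 0.847% (fresh) and 1.88% (preserved) of all genes were called, Ccl3 gave 0.84 (SE 0.22, adjusted p = 0.145) and 0.11 (SE 0.19, adjusted p = 0.872). Ccl4 gave 0.61 (SE 0.23, adjusted p = 0.251) and 0.09 (SE 0.17, adjusted p = 0.876) there. Xcl1 was called higher in CDAA animals in the preserved Clec4f gate (1.52, SE 0.26, adjusted p = 0.00556), in which it was near background.

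Xcl1 in the Ncr1 gate was at 1223, 1115, 2131 and 1144 CPM in fresh NC1, NC2, PC1 and PC2 and at 757, 1196, 1418 and 1297 after preservation. Fresh PC1 stood above all others. The diets overlapped in fresh cells and not in preserved cells. The log2 fold changes between diets were 0.51 (SE 0.25, adjusted p = 0.362) and 0.44 (SE 0.21, adjusted p = 0.400).

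The difference between the diets in the response to preservation was tested as an interaction over all cells. None of the 7 members was called by edgeR (2 had an unadjusted p under 0.05), and 0% of the 11505 genes tested were (739 at an unadjusted p under 0.05). Ccl5 came closest. It was at 8870, 12811, 8495 and 10053 CPM in fresh NC1, NC2, PC1 and PC2 and at 5225, 8866, 7807 and 10817 after preservation, so that both NC animals were lower, PC1 slightly lower and PC2 higher. The Ncr1 gate, which had the highest Ccl5 level, changed in the same directions. It held 19.0%, 29.5%, 14.7% and 19.3% of cells in fresh NC1, NC2, PC1 and PC2 and 10.9%, 19.2%, 13.4% and 27.2% after preservation. The part of this makeup in the Ccl5 values was not tested. The interaction term of Ccl5 was 0.61 (SE 0.12, unadjusted p = 0.000561, adjusted p = 0.223), and the DESeq2 test called it. Xcl1 gave 0.69 (SE 0.26, adjusted p = 0.736).

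Among related genes in fresh cells, 1 of 16 tested chemokines beyond the members was called higher in CDAA animals and 2 lower (median log2 fold change 0.43, all genes -0.02). Cxcl16, the ligand of Cxcr6, was higher (1.25, SE 0.15, adjusted p = 0.0343). Cxcl2 was lower (-2.82, SE 0.39, adjusted p = 0.0470), and so was Cxcl3 (-6.64, SE 0.88, adjusted p = 0.0441), which was at 3.71 and 1.73 CPM in NC1 and NC2 and at 0 and 0.04 in PC1 and PC2. Both bind Cxcr2, as Cxcl1 does. Of 14 receptors Cx3cr1 was higher (0.93, SE 0.13, adjusted p = 0.0470), and of 14 inducers and brakes Cebpb (1.15, SE 0.13, adjusted p = 0.0305) and Nfkbia (0.80, SE 0.12, adjusted p = 0.0497) were. In preserved cells, Ccl1 was the 1 of 16 chemokines called (2.42, SE 0.28, adjusted p = 0.0299), Ccr1, a receptor of Ccl3, Ccl5 and Ccl9, the 1 of 13 receptors (1.62, SE 0.19, adjusted p = 0.0299), and Egr1 the 1 of 15 inducers and brakes (-1.33, SE 0.15, adjusted p = 0.0281).

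The levels of Cxcl1 and Ccl2 rested on few cells. Cells with at least 10 UMIs of a member were counted as high cells, which describes where the UMIs were and is not tested, since the cells were chosen by the value. Cxcl1 had 108 high cells. The NC1, NC2, PC1 and PC2 libraries held 23, 14, 0 and 2 of them in fresh and 55, 12, 0 and 2 in preserved cells, so that 104 came from CSAA and 4 from CDAA animals. In the NC libraries these cells held 45.9% to 64.7% of the Cxcl1 UMIs.

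Of the 108 Cxcl1 high cells, 84 (77.8%) also had at least 10 UMIs of Ccl2, against 1.30% of all cells. They were spread over gates, with 36 tied, 20 in the Vcan gate, 17 in the Siglech gate, 16 in the Clec4f gate and 10 in the Clec4a3 gate. Clec4f itself was detected in 16 of the 108 (14.8%), against 51.5% of the cells of the Clec4f gate, which was set with this marker. Of other genes of its list, C1qa was found in 84.3% against 93.9% and Timd4 in 7.41% against 3.81%. Cd5l was found in 13.9% against 74.3%, Vsig4 in 14.8% against 40.6% and Marco in 0% against 2.20%. Prg4, which encodes lubricin, was detected in 92.6% of the 108 cells, Selp, which encodes P-selectin, in 81.5%, and the chemokine genes Cxcl2 and Ccl24 in 99.1% each. In the Clec4f gate as a whole, the shares were 5.81% for Prg4, 3.11% for Selp, 10.6% for Cxcl2 and 13.3% for Ccl24, at a median depth of 5624.5 UMIs per cell against 7623 in the Cxcl1 high cells. The diets were also mixed differently. The Clec4f gate held 66 to 361 cells in CDAA and 37 to 87 in CSAA libraries, whereas 104 of the 108 high cells came from CSAA animals. Diet and Cxcl1 level thus cannot be told apart in these contrasts. The genes were chosen after their values were seen, and no cell type is assigned to the Cxcl1 high cells.

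The genes with the highest ratio to the other cells of the same libraries were LOC103690289 (64.5-fold), Fxyd6 (55.1-fold), Ptgis (46.5-fold), Cxcl3 (44.3-fold), Cxcl2 (41.5-fold) and Ccl24 (41.4-fold), followed by Prg4 (38.0-fold). All cells together had a median of 3911 UMIs, and doublets were not removed. Ccl2 had 442 high cells, 292 from CSAA and 150 from CDAA animals, of which 187 lay in the Vcan gate and 128 were tied. The 84 cells high for both were 19.0% of them.

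**Figure D5:**
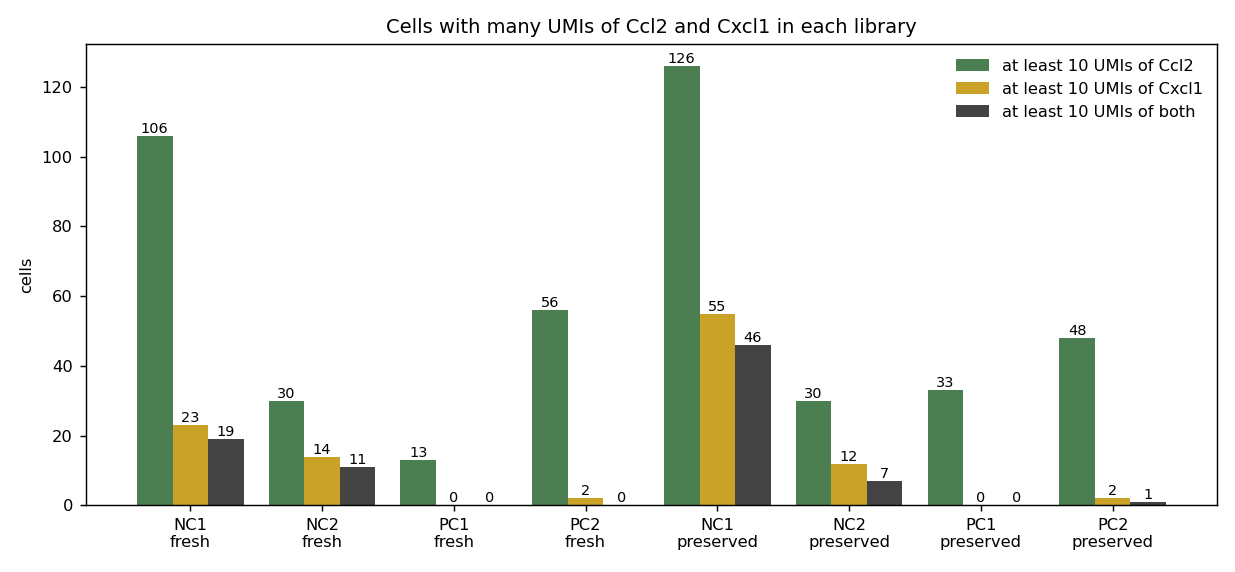
Number of cells per library with at least 10 UMIs of Ccl2, of Cxcl1 and of both, as bars. The 4 NC libraries hold 104 of the 108 Cxcl1 cells, of which 84 are also high for Ccl2, whereas Ccl2 cells occur in all 8 libraries.

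Ccl3 had 2354 high cells, of which fresh NC1, NC2, PC1 and PC2 held 82, 21, 76 and 75 and the preserved libraries 235, 540, 429 and 896. By gate, 784 lay in Ncr1, 583 were tied, 339 lay in Vcan and 306 in Clec4a3. Ccl4 had 1953 high cells, 1157 of them in the Ncr1 gate. The 846 cells high for both were 35.9% of the Ccl3 and 43.3% of the Ccl4 high cells, so that most high cells carried only 1 of these 2 chemokines at that level.

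Xcl1 had 1861 high cells, 1107 of them in the Ncr1 gate, and 99.6% also had at least 10 UMIs of Ccl5, as did 74.7% of all cells. Ccl9 had 27 high cells, 14 in fresh and 13 in preserved CDAA libraries and none in CSAA libraries. Ccl7 (37.2-fold), Sdc4 (13.1-fold), Ccl2 (10.7-fold) and Spp1 (7.996-fold), the gene of osteopontin, were among the genes with the highest ratios to the other cells there.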

How the data were processed

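The authors made the deposited UMI counts per gene and barcode with Cell Ranger 2.1.1 (STAR, bcl2fastq 2.17.1.14, per the submitters' notes) on Rnor6.0 with Ensembl 86. The matrices hold raw counts of 737280 barcodes without selection of cells. Here, barcodes of at least 500 UMIs were kept (15952178 to 23987719 UMIs per library), without removal of doublets. Precision is limited by the number of animals, 4 in all. Replicates were separate animals.

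UMIs were summed per library, or per library and gate, and tested with edgeR 4.0.16 in R 4.3.3 (quasi-likelihood, TMM, filterByExpr, Benjamini-Hochberg over all genes, call at adjusted p under 0.05). The animal was a block for preservation. Fresh and preserved libraries of an animal deviated together (r of 0.513 to 0.663), and the labels name the animal. Gates of 1 marker UMI and none of the other 6 markers had been planned, but many cells carried several markers, so that gates by marker lists are reported. Cd5, Klrb1a, Pecam1 and Ackr1 of the lists were not matched. The reading at 1.5 times background and the subtraction within gates were chosen after seeing the data. The members and lists were chosen with earlier results of these data known, so that a count of members called is a description. Genes of the pathway lists were named where called over all cells, at most 5 per list and comparison, and the 3 genes most like each member by r. The fits were tested on simulated data. Python 3.11.15, numpy 2.4.6, pandas 2.3.3, scipy 1.17.1, matplotlib 3.10.9 and DESeq2 1.42.0 (as an alternative) were used.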

Additional observations from a re-analysis of the deposited data

Results flagged for a closer look

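Of 28 groups of 4 libraries examined, 2 held a library far from the other 3 (Dixon's test at 5%, by which chance marks about 1 in 20 groups). Ccl2 over all cells was at 466 CPM in preserved NC1, against 103 to 156 in the other preserved libraries. Xcl1 in the Ncr1 gate was at 2131 CPM in fresh PC1, against 1115 to 1223 in the other fresh libraries.

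Cxcl1 in the Clec4f gate went opposite ways in the diets after preservation. The log2 ratio of preserved to fresh was 0.19 to 1.45 in the NC animals and -1.84 to -0.36 in the PC animals, a difference of -1.92 between the means. The difference was not tested, and the PC values rest on 11 and 4 UMIs fresh and 6 and 1 UMIs preserved.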

How the results depend on the processing

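Over all cells, Ccl3 was called higher after preservation under 14 of 14 alternatives (log2 fold change 1.61 to 2.02) and Ccl4 under 6 of 14. The number of members called after preservation (2) was 1 under a 2-fold minimum, Bonferroni adjustment, the DESeq2 test, subtraction of the free RNA and no replicate block, 5 without the filter, and 1 to 2 without single animals. The number between diets (2) was 0 in fresh and in preserved cells with the free RNA subtracted, 0 in preserved cells without the filter, and 1 to 4 (fresh) and 0 to 4 (preserved) without single animals. The interaction (0) gave 1 under the DESeq2 test and without the filter. Of members in their highest gate, the number called after preservation (2) was 1 under a 2-fold minimum, Bonferroni adjustment, the DESeq2 test and no replicate block and 0 with the free RNA subtracted, and between diets (5 of 14) it was 1 with the free RNA subtracted, 2 and 3 with gates of 1 marker at 1 and 2 UMIs, and 10 without the filter. The highest gate by level was kept by 6 and 5 of 7 members with these marker gates, and the highest gate by share (7) by 4 of 7 at a minimum of 1000 UMIs and by 4 and 3 with the marker gates. The cause was not tested.

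The values whose direction changed had not been called with all 4 animals. Leaving out single animals gave -0.081 to 0.030 for Ccl9 and -0.44 to 0.024 for Xcl1 after preservation over all cells, and between diets -2.29 to 0.30 (Ccl2) and -0.47 to 0.10 (Ccl5) in fresh and -1.84 to 0.15 (Ccl2), -0.063 to 0.60 (Ccl3) and -0.068 to 1.12 (Ccl4) in preserved cells. In the Ncr1 gate it gave -0.050 to 0.0012 for Ccl5 after preservation, -0.010 to 0.89 for Xcl1 between diets in fresh cells, and -0.15 to 0.43 (Ccl3), -0.12 to 0.35 (Ccl4) and -0.12 to 0.0017 (Ccl5) in preserved cells. With the free RNA subtracted, Ccl9 after preservation was 0.23 and the interaction of Ccl4 0.16. The latter was 0.011 at a minimum of 1000 UMIs and 0.0032 without cells of at least 20% mitochondrial UMIs. Without the 4% largest barcodes, the interaction of Ccl2 was -0.00036 and Ccl5 after preservation in the Ncr1 gate 0.030. Marker gates gave -0.32 for Ccl9 in the Clec4a3 gate (2 UMIs) and 0.16 for Xcl1 in the Ncr1 gate (1 UMI) after preservation, and -0.052 (Ccl3) and -0.20 (Ccl4) in the preserved Ncr1 gate between diets (2 UMIs). Cxcl1 within gates of the CDAA animals rested on few UMIs, with 1 to 11 per library in the Clec4f gate and 0 to 17 in the Vcan gate.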
